A study of Homo sapiens with 5 samples.

Results

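The genes described here are targets and regulators of the sterol regulatory element-binding proteins (SREBPs), the transcription factors that set the rate of cholesterol and fatty acid synthesis. They were chosen by gene symbol from a list of 36 names, of which 35 were among the 12474 genes of the deposited table, and the expression of FADS2 is not analysed here. The list has 4 regulators, a cholesterol branch of 19 genes and a fatty acid branch of 13 genes, 12 of them measured.

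The cells were MDA-MB-468, an established human triple-negative breast cancer line with amplified EGFR, carrying expressed lineage barcodes and grown in medium with serum. They were treated with 250 nM afatinib, an irreversible EGFR tyrosine kinase inhibitor, for 3 days (D3), 6 days (D6) or 9 days (D9), with 1 single-cell RNA library at each time, and 2 libraries were made from untreated cells (D0). The libraries held 479, 942 and 1139 cells at D3, D6 and D9 and 478 and 1063 untreated cells. All the cells came from a single line, so no second line tests the response.

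SREBP precursors sit in the membrane of the endoplasmic reticulum bound to SCAP, which carries them to the Golgi apparatus, where proteases release the active factor. When sterol is plentiful, INSIG proteins hold SCAP back, so the targets are transcribed mainly in sterol-poor cells. SREBF2 encodes the factor that acts mostly on cholesterol synthesis, and SREBF1 the one that acts mostly on fatty acid synthesis. Epidermal growth factor signalling is known to feed into this pathway through AKT and mTORC1.

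Values in the text are CPM, the count of a gene as parts per 1000000 of all counts, over the summed cells of a library, scaled by trimmed mean of M values (TMM) factors, which are called normalised CPM. The summed libraries held 14517579 to 28148379 counts. Mitochondrial genes took 17.2% and 15.995% of counts at D3 and D6 and 8.82% at D9, against 7.25% and 7.80% in untreated cells. The part that this difference plays in the results was not tested beyond the cells under 10% described with them. Those cells numbered 85 of 479, 188 of 942 and 857 of 1139 at D3, D6 and D9. Of untreated cells they were 379 of 478 and 860 of 1063, so that subset rests on few cells at D3 and D6. The D9 library stood apart from D3 and D6: the biological coefficient of variation of the fit of afatinib against untreated was 0.171 with D9 and 0.0855 without it. All 5 epithelial markers were in the table, summing to 3571 to 4992 CPM in afatinib and 5466 and 5546 CPM in untreated cells, while none of the 5 immune and none of the 4 adipocyte markers was. Of 5 fibroblast markers 1 was in the table, at 3.64 to 7.78 CPM in afatinib and 2.09 and 3.34 CPM in untreated cells, and of 4 endothelial markers 1, at 5.16 to 7.44 CPM in afatinib and 3.57 and 4.05 CPM in untreated cells. Their part in the results was not tested. ESR1 and PGR were looked for with ERBB2 as receptor genes, and 2 of these 3 had a row, summing to 24.5 to 26.0 CPM in afatinib and 12.3 and 13.4 CPM in untreated cells. A single cell barcode sequence occurred in more than 1 library. The deposited values had been adjusted between batches: the value 2 was missing altogether in both untreated replicate 1 and D3 for 4532 of 8316 genes that could be examined, but for 0 of 7278 genes in both untreated replicates, so untreated replicate 2 had been adjusted apart from the other 4 libraries. The untreated replicates were 2 captures with nothing to say that they came from separate cultures, so the p-values measure a spread that may be technical. The adjustment between these 2 libraries may also have narrowed that spread.

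The proximal promoter is where SREBPs and their partner factors bind, and 6 windows are shown for members of 3 kinds: the only 2 with an exact match to an SREBP motif searched for (SREBF2 and INSIG1), the 2 cholesterol genes that fell (MSMO1 and NSDHL), and FDPS and SCD, which stood above untreated in every afatinib library. Each runs 5′ to 3′ on the strand of its gene from 250 bases before to 50 bases after the start site (RefSeq, GRCh38.p14), and all 6 genes lie on the plus strand: SREBF2 at chr22:41832855-41833154, INSIG1 at chr7:155297628-155297927, MSMO1 at chr4:165327419-165327718, NSDHL at chrX:152830813-152831112, FDPS at chr1:155308616-155308915 and SCD at chr10:100346983-100347282. Capitals mark the sterol response element TCACNCCAC, the SREBP E-box TCACGTGA and the CCAAT box, the site of the NF-Y partner factor, on either strand (ATTGG is CCAAT read on the other strand).
SREBF2: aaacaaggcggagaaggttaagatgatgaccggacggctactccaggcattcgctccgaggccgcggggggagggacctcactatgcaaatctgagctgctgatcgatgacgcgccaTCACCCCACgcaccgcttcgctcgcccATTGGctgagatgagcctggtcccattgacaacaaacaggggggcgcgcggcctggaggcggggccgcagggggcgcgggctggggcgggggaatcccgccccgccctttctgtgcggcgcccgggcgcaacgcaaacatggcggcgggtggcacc
INSIG1: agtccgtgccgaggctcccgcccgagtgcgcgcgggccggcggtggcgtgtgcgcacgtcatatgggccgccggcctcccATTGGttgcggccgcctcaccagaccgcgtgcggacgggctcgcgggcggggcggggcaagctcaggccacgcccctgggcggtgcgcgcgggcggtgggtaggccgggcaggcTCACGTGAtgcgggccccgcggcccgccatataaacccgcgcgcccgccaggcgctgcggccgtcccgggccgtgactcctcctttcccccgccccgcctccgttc
MSMO1: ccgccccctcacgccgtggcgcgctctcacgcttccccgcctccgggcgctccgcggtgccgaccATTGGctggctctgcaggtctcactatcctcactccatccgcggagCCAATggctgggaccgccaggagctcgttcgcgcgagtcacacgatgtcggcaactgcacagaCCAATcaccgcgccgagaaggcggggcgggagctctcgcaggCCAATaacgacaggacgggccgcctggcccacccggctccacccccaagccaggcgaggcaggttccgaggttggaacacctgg
NSDHL: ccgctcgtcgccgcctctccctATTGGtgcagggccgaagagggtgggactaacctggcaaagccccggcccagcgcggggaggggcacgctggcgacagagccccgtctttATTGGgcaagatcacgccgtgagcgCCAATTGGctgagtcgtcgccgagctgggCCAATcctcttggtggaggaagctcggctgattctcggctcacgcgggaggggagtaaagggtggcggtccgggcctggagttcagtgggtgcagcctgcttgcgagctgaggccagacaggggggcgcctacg
FDPS: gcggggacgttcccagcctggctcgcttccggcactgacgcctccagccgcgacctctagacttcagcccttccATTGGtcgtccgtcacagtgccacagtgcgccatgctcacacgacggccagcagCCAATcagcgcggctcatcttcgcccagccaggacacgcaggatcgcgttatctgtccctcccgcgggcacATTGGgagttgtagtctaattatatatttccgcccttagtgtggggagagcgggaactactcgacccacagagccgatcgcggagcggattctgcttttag
SCD: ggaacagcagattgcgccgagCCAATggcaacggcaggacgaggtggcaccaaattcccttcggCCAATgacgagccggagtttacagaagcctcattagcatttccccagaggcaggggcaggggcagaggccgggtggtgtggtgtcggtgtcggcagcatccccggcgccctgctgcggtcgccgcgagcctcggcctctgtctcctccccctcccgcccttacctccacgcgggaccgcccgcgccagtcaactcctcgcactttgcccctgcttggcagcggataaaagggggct

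Windows of 32 of the 36 genes were searched, 42 windows in all. ACAT2 and FASN had no window. Windows on chromosome 8, which holds FDFT1 and SQLE, were left out, also from the windows over all genes. The sterol response element was found in SREBF2 alone, starting 133 bases before the start site, and in 1.13% of 35116 windows of the same length over all genes. Its CCAAT box lay at 106 bases before the start and did not overlap it. The E-box was found in INSIG1 alone, at 56 bases before the start, and in 0.980% of all windows. At least 1 CCAAT box stood in 29 of the 42 windows (69.0%), against 34.6% of all windows. By gene, that was 14 of 16 cholesterol genes, 9 of 12 fatty acid genes and 2 of 4 regulators, where the 12 with a window include FADS2 and leave out FASN. MSMO1 had 4 and NSDHL 5 CCAAT boxes, and 2 of those of NSDHL overlap head to head. The GC box GGGCGG, not capitalised, stood in 88.1% of member windows and 45.0% of all windows. These are matches of letters, not sites of measured binding. Only exact matches within the windows were sought, so variant sites and sites outside the windows would be missed.

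The first comparison asked how each gene differed between the 3 afatinib libraries and the 2 untreated ones. The mRNAs of the factors and of their escort rose, while most of the enzymes they control did not pass the test. Of the 4 regulators, 3 rose and none fell. Of 19 cholesterol genes none rose and 2 fell, and of 12 fatty acid genes none rose and 2 fell (edgeR quasi-likelihood test, adjusted p under 0.05 over 12145 genes). Over all genes tested 13.1% rose and 10.1% fell, so the counts of both enzyme branches, 2 of 19 and 2 of 12 down, are near that background. The median log2 fold change was 0.85 for the regulators, 0.017 for the cholesterol branch and -0.015 for the fatty acid branch, beside 0.047 for all genes tested. Without D9, 10 cholesterol genes passed, with FDPS, LSS, MVD, STARD4 and TM7SF2 higher and ACAT2, CYP51A1, FDFT1, MSMO1 and NSDHL lower, and 7 fatty acid genes, with ACACA, FADS1, FASN and SCD higher and ELOVL1, ELOVL6 and FADS3 lower, while 3504 of 12127 genes were higher and 3313 lower.

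**Figure D1:**
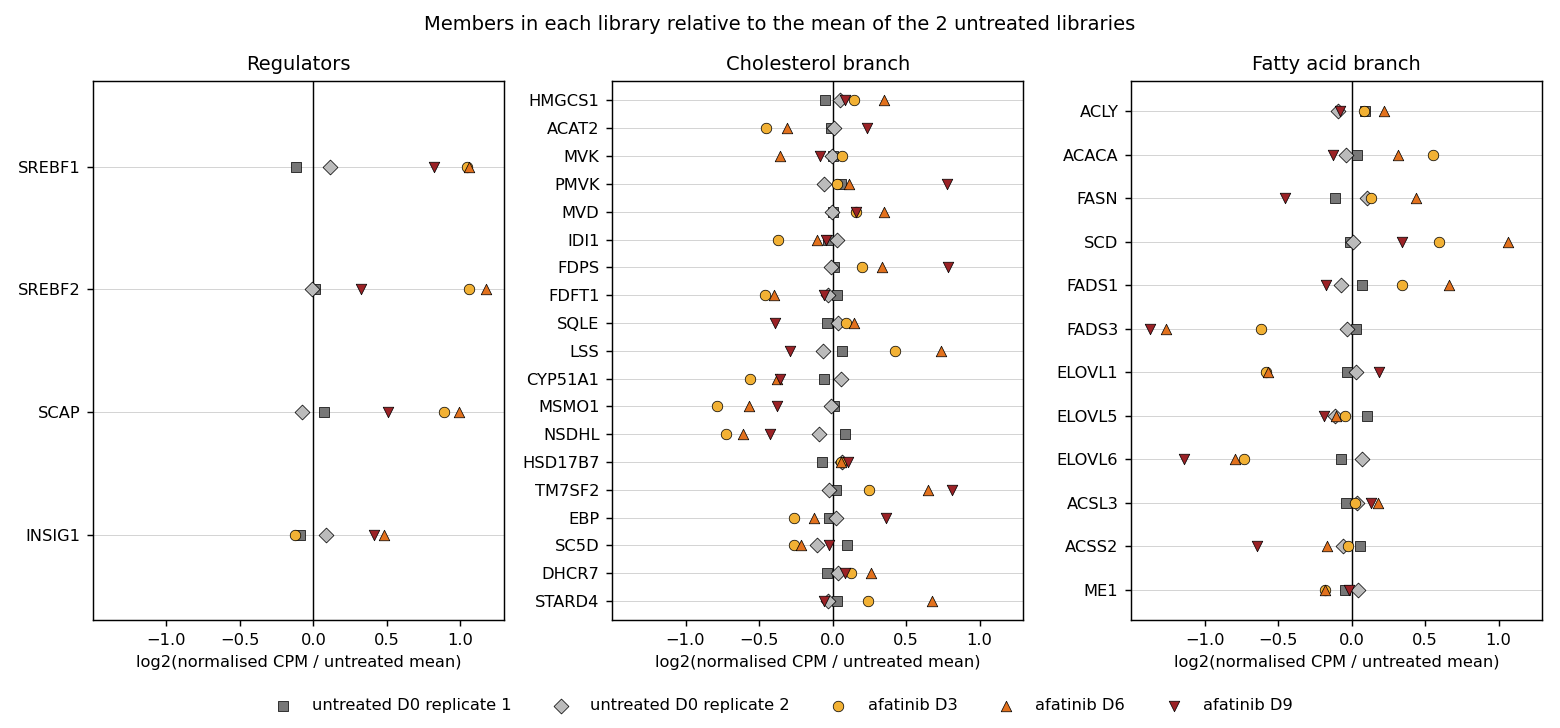
Each row is a member and each point a library, placed on the x axis at the log2 ratio of its normalised CPM to the mean of the 2 untreated libraries. SREBF1, SREBF2 and SCAP lie to the right of both untreated points in all 3 afatinib libraries, MSMO1, NSDHL, FADS3 and ELOVL6 lie to the left, and most other rows spread to both sides.

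SREBF1, the factor for fatty acid genes, had 45.7, 46.2 and 39.1 normalised CPM at D3, D6 and D9, against 20.5 and 24.0 in untreated cells. The groups did not overlap, and the log2 fold change was 0.97 ± 0.15 (SE, edgeR adjusted p = 0.00638). SREBF2, the factor for cholesterol genes, had 66.5, 71.8 and 39.9 normalised CPM at D3, D6 and D9, against 32.1 and 31.6 in untreated cells. D3 and D6 were high and D9 stood only a little above untreated (0.90 ± 0.25 on the log2 scale, edgeR adjusted p = 0.0376). SCAP, the escort and sterol sensor, had 28.0, 30.1 and 21.5 normalised CPM at D3, D6 and D9, against 15.9 and 14.3 in untreated cells. It followed the same order of days as SREBF2 (0.81 ± 0.18 on the log2 scale, edgeR adjusted p = 0.0191). INSIG1, which retains SCAP and is itself an SREBP target, had 18.0, 27.4 and 26.2 normalised CPM at D3, D6 and D9, against 18.5 and 20.8 in untreated cells. D3 was at the untreated level, and the test was not passed (0.28 ± 0.20, edgeR adjusted p = 0.335).

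The calls on the 3 regulators rest on few libraries. Without either untreated library none of the 3 passed, and without D3 or without D6 SREBF1 alone did; 332 genes still passed without untreated replicate 1 and 239 without untreated replicate 2. In cells with under 10% mitochondrial counts only SREBF1 passed, and in cells thinned to 5000 counts SCAP did not. Over all genes 2145 of 12133 and 1434 of 11964 passed in these cells, against 2819 of 12145 with all cells and counts.

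All 3 of these transcripts are long, 4254 to 5237 bases, and long transcripts as a class stood higher at D3 and D6. Over all genes the Spearman correlation of transcript length with the log2 fold change was 0.36, 0.37 and 0.02 for D3, D6 and D9 against untreated, a description over genes that share these libraries. Genes of 3000 bases or more had a median log2 fold change of 0.21 at D3 and 0.20 at D6, and those under 1500 bases -0.36 and -0.38. With an offset for this trend, an alternative chosen after seeing the data, SREBF1, SREBF2 and SCAP still passed, at 0.84, 0.73 and 0.72 on the log2 scale. With that offset 3 cholesterol genes were called higher, FDPS, PMVK and TM7SF2 (0.57, 0.52 and 0.69), and 3 lower, CYP51A1, MSMO1 and NSDHL (-0.44, -0.54 and -0.51). Over all genes 1626 of 12123 were then called higher and 1599 lower.

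In the cholesterol branch, the 2 genes that fell act one after the other in removing the methyl groups that flank the hydroxyl of the sterol ring. MSMO1, the methyl sterol oxidase, had 21.1, 24.5 and 28.0 normalised CPM at D3, D6 and D9, against 36.7 and 36.2 in untreated cells. All 3 afatinib libraries were below both untreated ones, D3 the lowest, and the log2 fold change was -0.57 ± 0.15 (edgeR adjusted p = 0.0352). NSDHL, the decarboxylating dehydrogenase of the next step, had 48.96, 53.0 and 60.5 normalised CPM at D3, D6 and D9, against 86.0 and 76.1 in untreated cells. It had the same order of days (-0.58 ± 0.15 on the log2 scale, edgeR adjusted p = 0.0315). HSD17B7, the reductase that completes this demethylation, was level, at 25.4, 25.5 and 26.3 normalised CPM in afatinib and 23.3 and 25.7 in untreated cells. CYP51A1, the lanosterol demethylase, acts earlier in the pathway but not directly before them. It had 47.7, 54.0 and 54.9 normalised CPM in afatinib and 67.4 and 73.0 in untreated cells, without overlap but short of the threshold (-0.43 ± 0.14, edgeR adjusted p = 0.0612). Neither MSMO1 nor NSDHL passed without either untreated library, without D3 or without D6, nor in cells thinned to 5000 counts or in G1 cells.

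By position rather than by test, 5 of the 19 cholesterol genes had all afatinib libraries above both untreated ones and 5 had them all below, against 31.1% and 25.8% of all 12474 genes. Those above were HMGCS1, MVD, FDPS, TM7SF2 and DHCR7, and those below were IDI1, FDFT1, CYP51A1, MSMO1 and NSDHL. Of the early steps from acetyl-CoA to mevalonate and on, HMGCS1, the HMG-CoA synthase, had 27.0, 31.1 and 25.9 normalised CPM in afatinib and 23.6 and 25.2 in untreated cells, a difference of 0.20 ± 0.14 on the log2 scale. ACAT2, the thiolase that joins 2 acetyl-CoA units, had 101, 111 and 162 normalised CPM in afatinib and 137 and 139 in untreated cells, low at D3 and D6 and high at D9. The mevalonate kinase MVK spread from 23.5 to 31.4 normalised CPM in afatinib around 30.1 and 30.0 in untreated cells, and the decarboxylase MVD had 106, 121 and 106 in afatinib and 95.6 and 94.8 in untreated cells.

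FDPS, which makes farnesyl diphosphate, had 352, 388 and 529.7 normalised CPM at D3, D6 and D9, against 309 and 305 in untreated cells. It stood higher at each later time, but the spread of the 3 days left it short of the threshold (0.47 ± 0.22, edgeR adjusted p = 0.160). With the length offset FDPS differed little between D6 and D9, at 0.43, 0.62 and 0.66 on the log2 scale against untreated at D3, D6 and D9. TM7SF2, a sterol reductase of the endoplasmic reticulum, had 12.4, 16.4 and 18.3 normalised CPM at D3, D6 and D9 and 10.6 and 10.2 in untreated cells, the same order (0.60 ± 0.19 on the log2 scale, edgeR adjusted p = 0.0605). FDFT1, the squalene synthase at the branch point to sterols, had 104, 108 and 137 normalised CPM in afatinib and 145 and 139.8 in untreated cells. SQLE, the squalene epoxidase, had 136, 142 and 97.8 normalised CPM at D3, D6 and D9 and 125 and 132 in untreated cells, and LSS, the lanosterol synthase after it, had 35.8, 44.7 and 21.9 in afatinib and 27.9 and 25.6 in untreated cells. Both were above untreated at D3 and D6 and below it at D9.

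None of the remaining cholesterol genes passed over the 3 days taken as a group. IDI1, the isopentenyl diphosphate isomerase, SC5D and DHCR7, the last enzymes before cholesterol, and EBP, the sterol isomerase, had log2 fold changes of -0.17 ± 0.16, -0.16 ± 0.14, 0.16 ± 0.15 and 0.02 ± 0.22. EBP had 166, 183 and 257 normalised CPM at D3, D6 and D9, against 197 and 203 in untreated cells, so its days lay on both sides of untreated, while IDI1 had 100.2, 120 and 126 in afatinib, against 127 and 133 in untreated cells. PMVK, the phosphomevalonate kinase, came to 0.35 ± 0.24 through D9 alone, with 124, 130.4 and 207 normalised CPM at D3, D6 and D9 and 126 and 116 in untreated cells. STARD4, a sterol carrier protein, had 7.28, 9.81 and 5.92 normalised CPM in afatinib and 6.29 and 6.01 in untreated cells.

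The fatty acid branch had its 2 falls in a desaturase and an elongase. FADS3, a desaturase of sphingoid bases, had 7.86, 5.03 and 4.65 normalised CPM at D3, D6 and D9, against 12.3 and 11.8 in untreated cells. It stood lower at each later time without overlap (-1.05 ± 0.24 on the log2 scale, edgeR adjusted p = 0.0194). ELOVL6, which lengthens palmitate to stearate, had 16.2, 15.5 and 12.2 normalised CPM at D3, D6 and D9, against 25.6 and 28.3 in untreated cells, again without overlap and with D9 lowest (-0.88 ± 0.16, edgeR adjusted p = 0.0106). Neither passed without either untreated library, FADS3 did not pass without D6, and ELOVL6 did not in cells thinned to 5000 counts.

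SCD, the stearoyl-CoA desaturase next in line after ELOVL6, had 133, 184 and 112 normalised CPM at D3, D6 and D9, against 87.3 and 88.7 in untreated cells, the only fatty acid gene with every afatinib library above untreated, where 31.1% of all genes have this. The 3 days differed enough to leave it short of the threshold (0.70 ± 0.23, edgeR adjusted p = 0.0591). FASN, the fatty acid synthase, had 95.1, 118 and 63.5 normalised CPM at D3, D6 and D9 and 80.3 and 93.2 in untreated cells, and ACACA, the acetyl-CoA carboxylase before it, had 30.3, 25.7 and 19.0 in afatinib and 21.2 and 20.1 in untreated cells. Both stood above untreated at D3 and D6 and below it at D9. ACLY, which makes cytosolic acetyl-CoA from citrate, stayed within 58.5 to 71.8 normalised CPM in afatinib, against 65.6 and 57.7 in untreated cells.

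FADS1, a desaturase of polyunsaturated fatty acids, had 10.6, 13.2 and 7.39 normalised CPM at D3, D6 and D9 and 8.74 and 7.92 in untreated cells. ELOVL1, the elongase of very long chains, had the opposite shape, with 68.5, 69.1 and 116 in afatinib and 100.3 and 105 in untreated cells. The other 4 genes, ELOVL5 (elongation of polyunsaturated chains), ACSL3 (fatty acid activation), ACSS2 (acetate activation) and ME1 (malic enzyme, a source of NADPH), had log2 fold changes of -0.11 ± 0.14, 0.11 ± 0.14, -0.26 ± 0.20 and -0.12 ± 0.15, and none passed.

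**Figure D2:**
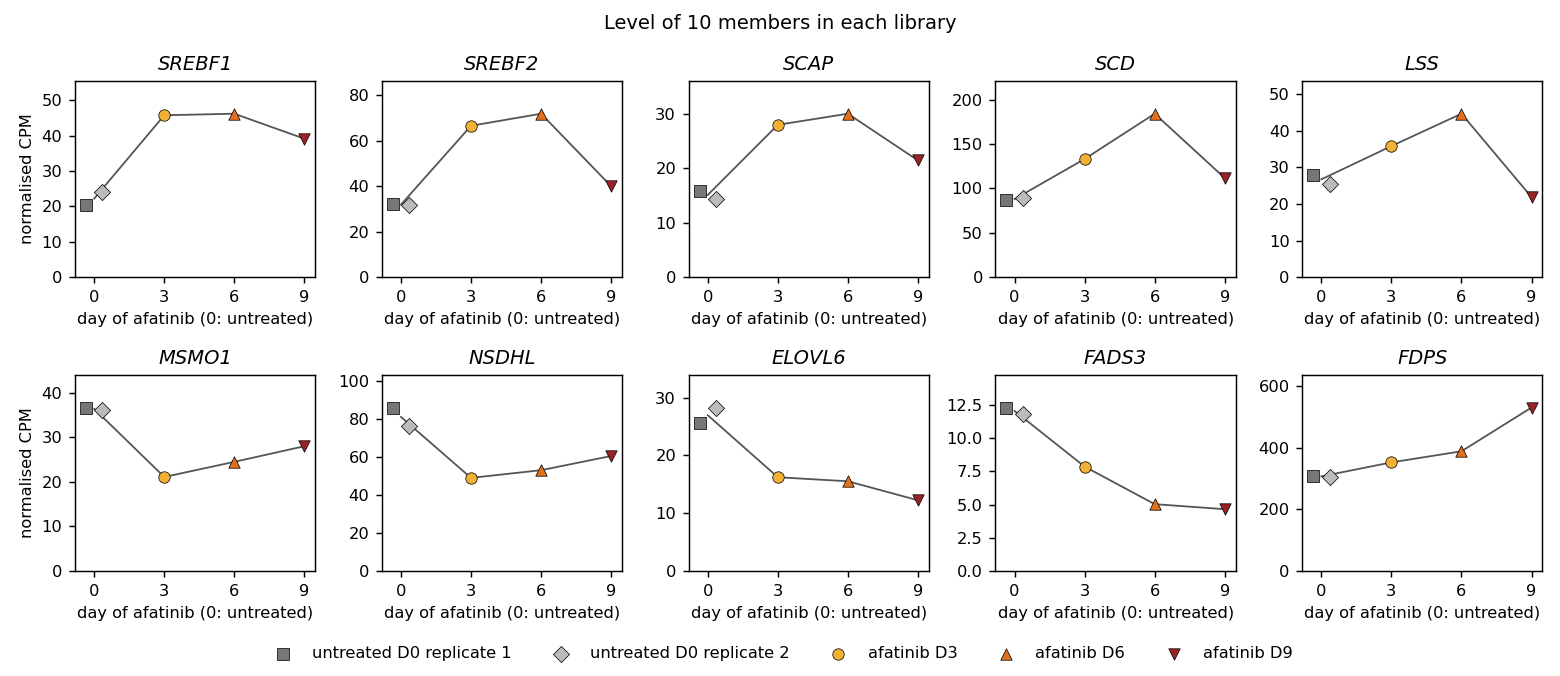
Normalised CPM of 10 members (y axis, from 0) against the day of afatinib (x axis, day 0 untreated), with 1 point per library and a line through the mean of the untreated points. SREBF2, SCAP, SCD and LSS peak at D6 and are lower at D9, FDPS is highest at D9, and MSMO1, NSDHL, ELOVL6 and FADS3 stay below untreated throughout.

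Each day was then set against untreated cells. This fit takes its spread from the pair of untreated libraries alone (1 residual degree of freedom), so a call needed at least a 2-fold change as well as an adjusted p under 0.05. Its biological coefficient of variation was 0.0558. That pair had been adjusted between batches before deposit, which may have narrowed the spread and made the p-values of all comparisons of days too small. At D3, 2 members were higher, SREBF1 (1.04 ± 0.14 on the log2 scale) and SREBF2 (1.06 ± 0.13), and none lower, where 6.28% and 4.20% of 12180 genes were. At D6, 3 members were higher, SREBF1 (1.05 ± 0.14), SREBF2 (1.17 ± 0.13) and SCD (1.07 ± 0.09), and FADS3 was lower (-1.26 ± 0.17), against 6.73% and 5.77% of genes. At D9 none was higher and FADS3 (-1.37 ± 0.16) and ELOVL6 (-1.14 ± 0.14) were lower, against 5.08% and 7.27% of genes. With the length offset, SREBF1, SREBF2 and SCD no longer reached 2-fold at any day, SREBF1 being at 0.88 and SREBF2 at 0.97 on the log2 scale at D6, whereas FADS3 was called lower at D6 and D9 and ELOVL6 at D3, D6 and D9. In cells with under 10% mitochondrial counts, 85 at D3 and 188 at D6, 0 members were called at D3 and 1, FADS3, at D6. Of 12167 genes 829 and 1093 were called there, against 1276 and 1523 of 12180 in all cells.

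No cholesterol gene reached 2-fold on any day by edgeR, limma-voom or DESeq2. With no minimum fold, 9, 13 and 9 of the 19 had an edgeR adjusted p under 0.05 at D3, D6 and D9, against 57.9%, 60.8% and 56.4% of all genes. Cholesterol genes ran from -0.79 to 0.42 at D3, from -0.61 to 0.74 at D6 and from -0.42 to 0.82 at D9 in log2 fold change. The largest at D9 were TM7SF2 (0.82 ± 0.14), FDPS (0.79 ± 0.05) and PMVK (0.78 ± 0.08).

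The branches were compared by their medians, as a description. Against untreated cells the median log2 fold change of the cholesterol branch came to 0.05, 0.05 and -0.02 at D3, D6 and D9, that of the fatty acid branch -0.0020, 0.04 and -0.15, and that of the regulators 0.97, 1.02 and 0.46. In cells with under 10% mitochondrial counts the regulator medians were 0.66, 0.59 and 0.36. All genes tested had medians of 0.04, 0.0086 and 0.06. At D9 the fatty acid median was thus the lower of the pair, with 9 of its 12 genes below untreated, against 10 of 19 in the cholesterol branch and 45.2% of all genes. Summed over its 19 genes, the cholesterol branch came to 1592, 1746 and 2042 normalised CPM at D3, D6 and D9, against 1715 and 1712 in untreated cells. Without FDPS, EBP and PMVK, the 3 members of highest level, the other 16 came to 950, 1044 and 1048, against 1084 and 1089. The sum without them was thus below both untreated libraries on each day. The 12 fatty acid genes summed to 591, 674 and 556 normalised CPM at D3, D6 and D9, against 567 and 577 in untreated cells. Without SCD, the member of highest level, they summed to 458, 490 and 445, against 480 and 488.

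**Figure D3:**
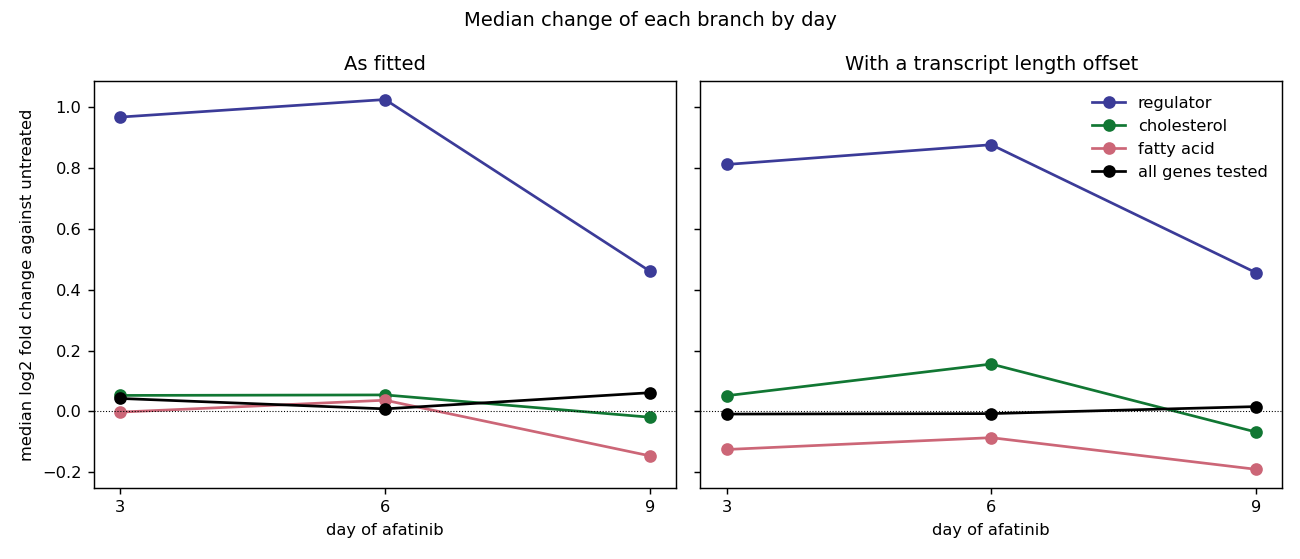
Median log2 fold change against untreated cells (y axis) of the 4 regulators, the 19 cholesterol genes, the 12 fatty acid genes and all genes tested, at each day of afatinib (x axis), as fitted on the left and with the transcript length offset on the right. The regulators stand at 0.97, 1.02 and 0.46 as fitted, while both enzyme branches stay within 0.2 of 0 in both panels.

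The treated days were also compared with each other. Between D6 and D3, 0 of the 35 members passed both thresholds in edgeR, limma-voom or DESeq2, where 0.452% of genes were higher and 0.772% lower at D6. At an unadjusted p under 0.05 there were 10 of the 35 members, against 18.9% of all genes. In the cholesterol branch 18 of 19 genes had a fold change above 0 at D6, with a median of 0.14, where 48.4% of all genes had one. Between D9 and D6, LSS was called lower at D9 (-1.03 ± 0.16, edgeR adjusted p = 1.26e-09) and none higher, where 3.25% of genes were lower and 0.969% higher. LSS was at -0.88 on the log2 scale with the length offset, and no member was called with that offset or in cells with under 10% mitochondrial counts.

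The branch medians lay on both sides of that of all genes here. The cholesterol median was 0.16, with 13 of 19 genes higher at D9, and the fatty acid median -0.32, with 10 of 12 lower at D9, beside -0.0073 for all genes tested, of which 49.3% were higher at D9. Below the 2-fold minimum, FASN (-0.89 ± 0.13), SREBF2 (-0.85 ± 0.16), FADS1 (-0.84 ± 0.17), STARD4 (-0.73 ± 0.19) and SCD (-0.72 ± 0.11) were the lowest after LSS. ELOVL1 (0.75 ± 0.13), PMVK (0.67 ± 0.10), ACAT2 (0.55 ± 0.11), EBP (0.49 ± 0.08) and FDPS (0.45 ± 0.06) were the highest.

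The genes at the 2 ends also differ in length. The 5 highest have transcripts of 1002 to 1520 bases, and the 6 lowest 4364 to 8464 bases. Over the 35 members the Spearman correlation of length with the D9 over D6 change was -0.71, and over all 12158 genes with a length it was -0.43. The median length is 2227 bases in the cholesterol branch and 4329 bases in the fatty acid branch. With the length offset the difference between the branch medians came to 0.17, from 0.0011 and -0.17, where it was 0.48 without it. In cells with under 10% mitochondrial counts the medians were -0.06 and -0.28.

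**Figure D4:**
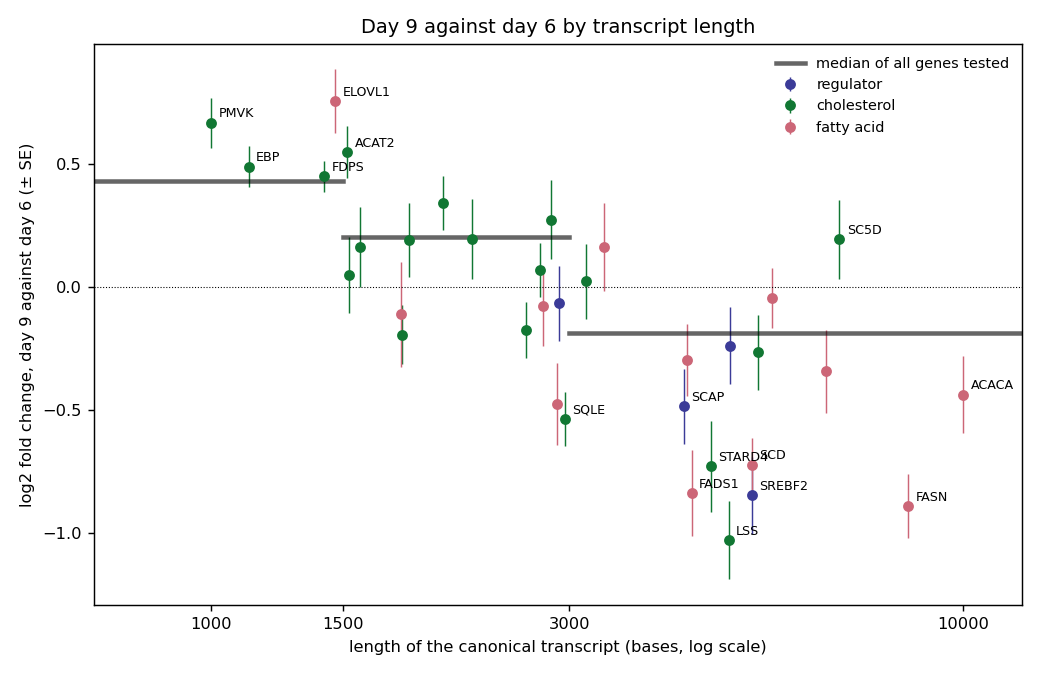
Log2 fold change at D9 against D6 (y axis, bars are SE) of each member against the length of its canonical transcript in bases (x axis, log scale), coloured by branch, with thick lines for the median of all genes tested under 1500, from 1500 to under 3000, and of 3000 bases or more. Members under 1500 bases lie above 0, as the median of all genes of that length does at 0.43, and most members over 3000 bases lie below 0, where that median is -0.19.

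Other genes of the pathway came from lists written together with the design. Of all genes tested, 13.1% rose and 10.1% fell. Among 16 measured regulators of SREBP processing 3 rose and none fell. They were SEC24D (1.37 ± 0.24 on the log2 scale), a coat protein of vesicles leaving the endoplasmic reticulum, FBXW7 (0.92 ± 0.15), which marks nuclear SREBP for degradation, and MBTPS1 (0.79 ± 0.15), the first of the proteases that cut SREBP in the Golgi (edgeR adjusted p = 0.00868, 0.0071 and 0.0115). MBTPS1 had 78.6, 86.9 and 75.3 normalised CPM at D3, D6 and D9, against 49.7 and 43.1 in untreated cells. SEC24D had 7.79, 12.3 and 9.23 in afatinib and 3.61 and 3.94 in untreated cells.

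Among 22 measured genes of sterol uptake, storage and efflux, 4 rose and 1 fell. NCEH1, which frees cholesterol from its esters, fell (-1.004 ± 0.16, edgeR adjusted p = 0.00612), and CYP27A1, which oxidises the sterol side chain, rose (0.99 ± 0.21, edgeR adjusted p = 0.0156). Of 13 other genes of sterol synthesis none passed in edgeR, limma-voom or DESeq2, and 1 had an unadjusted p under 0.05 in edgeR. Of 29 other genes of fatty acid and glycerolipid synthesis tested, 1 rose and 2 fell. HACD2, a dehydratase of chain elongation, rose (0.57 ± 0.15 on the log2 scale, edgeR adjusted p = 0.0346), and SCD5, a second stearoyl-CoA desaturase, was among those that fell (-0.72 ± 0.15, edgeR adjusted p = 0.0141). SCD5 had 27.6, 22.3 and 22.3 normalised CPM in afatinib and 39.6 and 39.7 in untreated cells, below untreated where SCD was above. None of the 7 genes named from these lists passed without either untreated library, nor did HACD2 without D3, without D6 or with mitochondrial and ribosomal protein genes left out. NCEH1, SCD5 and HACD2 did not pass in thinned cells or in G1 cells.

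Within single cells, SREBF1 and SREBF2 were detected in a larger share of afatinib cells at equal depth. After every cell was thinned to 5000 counts, which no cell fell short of, at least 1 SREBF1 count was seen in 23.0%, 21.1% and 17.9% of cells at D3, D6 and D9, against 8.16% and 10.5% of untreated cells. The exact 95% intervals were 19.3 to 27.0%, 18.6 to 23.9% and 15.7 to 20.3% in afatinib, and 5.87 to 10.98% and 8.75 to 12.5% in untreated cells, and cover counting error only. Unthinned, the shares were 61.4%, 45.5% and 47.4% in afatinib and 49.2% and 41.7% in untreated cells, whose cells were read more deeply in replicate 1 (a median of 45659 counts per cell, against 13862 at D6). SREBF2 was seen in 30.9%, 30.9% and 19.1% of thinned cells at D3, D6 and D9, against 15.7% and 13.6% of untreated cells. SCAP was seen in 13.4%, 14.8% and 11.1% of thinned afatinib cells, against 10.7% and 7.06% of untreated cells, and INSIG1 in 6.68%, 12.8% and 12.5% of afatinib cells, against 7.11% and 9.60% of untreated cells. SCD was seen in 53.4%, 55.9% and 39.9% of afatinib cells, against 35.1% and 33.2% of untreated cells. FADS3 was seen in 2.92%, 2.34% and 2.37% of afatinib cells, against 4.18% and 5.08% of untreated cells. The median share over all measured members was also higher in thinned afatinib cells. It was 19.4%, 20.2% and 17.9% at D3, D6 and D9, against 15.7% and 14.3% of untreated cells. A single line holds no cell type that lacks these genes, so the share that free RNA gives was not measured.

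The median correlation from cell to cell was higher over pairs of cholesterol genes than over pairs of fatty acid genes. Over the cells of a library, the median Pearson correlation over pairs of cholesterol genes was 0.11, 0.08 and 0.11 at D3, D6 and D9, and 0.15 and 0.11 in untreated cells. Pairs of fatty acid genes had medians of 0.01 to 0.03 and pairs across the branches 0.03 to 0.04, beside 0.01 for pairs of all genes. ACAT2 with FDPS, the pair of highest mean over the libraries, gave 0.35, 0.27 and 0.39 at D3, D6 and D9, and 0.39 and 0.18 in untreated cells. IDI1 with SQLE, also among the highest, gave 0.25, 0.24 and 0.26 in afatinib and 0.42 and 0.28 in untreated cells. In thinned cells ACAT2 with FDPS gave 0.12, 0.18 and 0.18 in afatinib and 0.15 and 0.08 in untreated cells. IDI1 with SQLE then gave 0.12, 0.10 and 0.06 in afatinib and 0.02 and 0.10 in untreated cells. After thinning, the cholesterol medians were 0.04 to 0.05 and the fatty acid medians 0.0072 to 0.021, so the correlations are weak and move with depth. The branches were not matched for level, and the part that level plays in their difference was not tested. Cells of a library share its processing, and these values are descriptions.

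**Figure D5:**
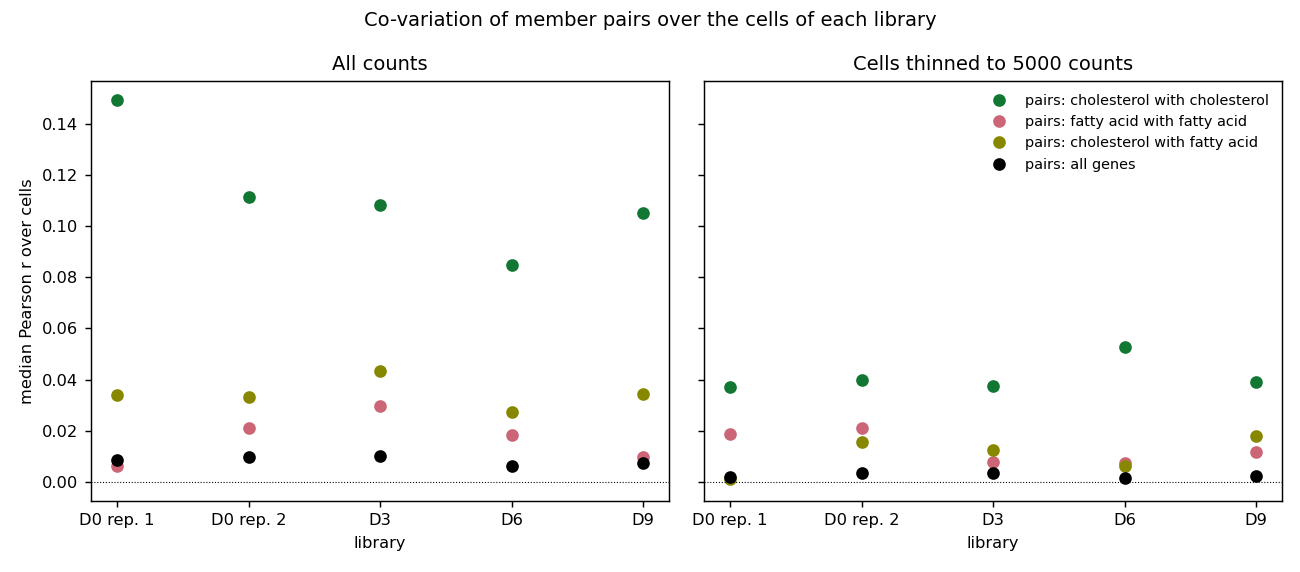
Median Pearson r over the cells of each library (y axis) for pairs of genes within and between the branches and for pairs of all genes, per library (x axis), from all counts on the left and from cells thinned to 5000 counts on the right. Pairs of cholesterol genes lie above the other pairs in each library in both panels, at 0.08 to 0.15 with all counts and 0.04 to 0.05 after thinning.

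The share of a cell's counts that went to the cholesterol branch had a median of 0.155%, 0.164% and 0.194% over the cells at D3, D6 and D9, and 0.152% and 0.157% over untreated cells. Its middle range was wide, with 10% of cells below 0.120% and 10% above 0.307% at D9, and with 10% below 0.0905% and 10% above 0.234% in untreated replicate 2. At D9 the median was 0.187% in cells scored as G1, 0.223% in S and 0.186% in G2/M, and in untreated replicates 1 and 2 it was 0.140% and 0.144% in G1, 0.153% and 0.153% in S, and 0.158% and 0.162% in G2/M, so D9 was above both in each phase class. This share sums all 19 genes. At D9 FDPS, EBP and PMVK, the 3 of highest level, summed to 994 normalised CPM, against 631 and 624 in untreated cells. The other 16 summed to 1048 at D9, against 1084 and 1089. The fatty acid share had medians of 0.0625%, 0.0666% and 0.0557% at D3, D6 and D9, and 0.0527% and 0.0534% in untreated cells. Both shares are of all counts of a cell, without TMM scaling. The fatty acid share at D9 was above untreated, but its normalised sum was below, at 556 against 567 and 577. The cholesterol share at D3 lay between the untreated values, but its normalised sum was below both, at 1592 against 1715 and 1712.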

How the data were processed

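The authors aligned single-cell libraries with Cell Ranger 6.1.2 to GRCh38, removed cells with under 5000 counts and genes of low expression, and adjusted the counts between sequencing batches with ComBat-seq. The deposited matrix holds these adjusted values in the form of expected counts per gene and cell, all whole numbers, and the deposited barcode and gene lists name its 4101 cells and 12474 genes. Cells were assigned to libraries by barcode prefix, and no column was left unmatched.

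Counts were summed per library and fitted across all genes with edgeR 4.0.16 (quasi-likelihood test, TMM, filterByExpr, Benjamini-Hochberg) in R 4.3.3, since cells are not replicates. Afatinib against untreated used 2 levels over 5 libraries (12145 genes), in which the 3 days stand in as replicates of treatment, and each day used a factor of 4 levels (12180 genes). Calls needed an adjusted p under 0.05, and for days also a log2 fold change of at least 1. Transcript lengths came from GENCODE v44 canonical transcripts (12449 genes). Every member in the table is named, and for each of 4 pathway lists the 3 called genes of largest change, of which 2 are not reported here. The members and lists were chosen with earlier results of these data known. Alternatives were DESeq2 1.42.0, limma-voom 3.58.1, other scaling, filters and cells, thinning, and leaving out each library. Doublets were not called again.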

Additional observations from a re-analysis of the deposited data

Results flagged for a closer look

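LSS, the lanosterol synthase, differed between days beyond both thresholds: its log2 fold change at D9 against D6 was -1.03, with 21.9 normalised CPM at D9 against 44.7 at D6. It lost this call with the transcript length offset and in cells with under 10% mitochondrial counts. With all cells and no offset, no other member was called between treated days, each of which is a single library.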

How the results depend on the processing

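With DESeq2, limma-voom, other size factors, no filter on low counts, and mitochondrial and ribosomal protein genes left out, the calls of afatinib against untreated stayed at 2 to 3 cholesterol genes, 2 to 3 fatty acid genes and 3 regulators. No named gene called in that comparison changed direction under any alternative. Leaving out 1 library at a time gave 0 to 10 cholesterol genes, 0 to 7 fatty acid genes and 0 to 3 regulators, the highest without D9 and the lowest without an untreated library, with 0 cholesterol genes also without D6. A linear trend over the days called 0 cholesterol genes and 0 regulators. Thinned cells called 0 cholesterol genes, 1 fatty acid gene and 2 regulators, G1 cells 0 cholesterol genes, and cells under 10% mitochondrial counts 1 regulator. Fewer of all genes passed in these fits too, against 2819 of 12145 as first fitted. They were 601 of 12145 with the trend, 1434 of 11964 in thinned cells and 1611 of 11903 in G1 cells. Cells under 10% mitochondrial counts gave 2145 of 12133. The transcript length offset, chosen after seeing the data, called 6 cholesterol genes, 3 higher and 3 lower, where 1626 of 12123 genes were higher and 1599 lower.

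For the days, D3 against untreated gave 1 member with RLE size factors or DESeq2 (SREBF2), 1 other with the length offset (ELOVL6, lower), and 0 without mitochondrial and ribosomal protein genes or in cells under 10% mitochondrial counts, in place of 2. D6 gave 1 member in cells under 10% mitochondrial counts and 2 with the length offset, in place of 4, and D9 gave 1 in thinned cells, in place of 2. D6 against D3 gave 1 in thinned and in G1 cells, INSIG1 both times. D9 against D6 gave 3 in thinned cells, and 0 in cells under 10% mitochondrial counts and with the length offset. Over all genes these settings called 775, 453 and 468, against 514 as first fitted. The cause of these changes was not tested.

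The median log2 fold change of the cholesterol branch under afatinib, 0.017, was -0.051 without mitochondrial and ribosomal protein genes, 0.10 in G1 cells and -0.074 without the 3 members of highest level, and -0.0053 to 0.080 with 1 library left out. That of the fatty acid branch, -0.015, was 0.087 in G1 cells, -0.13 with the length offset and -0.11 without the 3 members of highest level, and -0.12 to 0.014 with 1 library left out. Their difference, 0.03, was 0.11 in cells under 10% mitochondrial counts, 0.18 with the length offset, and 0.0042 to 0.19 with 1 library left out.

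Without thinning, the median share of cells with a count over the members was 55.1%, 45.5% and 47.4% at D3, D6 and D9 and 68.0% and 52.0% in untreated cells. After thinning it was 19.4%, 20.2% and 17.9% at D3, D6 and D9 and 15.7% and 14.3% in untreated cells. With thinning, the median correlation of cholesterol pairs was 0.037, 0.053 and 0.039 at D3, D6 and D9 and 0.037 and 0.040 in untreated cells.

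No paired analysis was possible because each treated day has 1 library, so the groups share fewer than 2 replicate numbers. Without an untreated library the day factor has no residual degree of freedom, so those fits were not run. Each day is 1 library, and a low-count gene such as STARD4 or FADS3 rests on few counts per cell. Batch adjustment before deposit cannot be undone here, and time and library cannot be told apart.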
